A study of Homo sapiens with 4 samples.

Results

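S phase cells were compared between irradiated and untreated cultures of U-2 OS, an established human osteosarcoma cell line with wild-type p53. The cells were chosen by their own transcripts. Its S score, the summed level of MCM2, MCM4, MCM5, MCM6, PCNA, TYMS, RRM2, CDC6, GINS2 and UHRF1 in counts per 10000, had to lie at or above the 70th percentile of all cells. Its M score, the same sum over CDK1, CCNB1, TOP2A, CENPF, MKI67, TPX2, UBE2C, PLK1, AURKA and KIF11, had to lie under the 70th percentile. The rule found 219 of 1220 cells. Cells were either left untreated (UT) or given 4 Gy of ionizing radiation (IR), and sorted singly into the wells of plates for SORT-seq, a plate-based method that counts the 3′ ends of messenger RNA with unique molecular identifiers (UMIs). Each of 2 experiments gave 1 UT and 1 IR library. The interval between irradiation and sorting is 48 h in the series design and in the study's methods, and 24 h in the treatment protocol of the labels, so it is not settled here. The comparison asks how cells that carry the transcripts of replication differ between irradiated and untreated cultures.

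During S phase the genome is copied once. The MCM helicase is loaded onto origins in G1 with the help of CDC6, is fired with GINS, and unwinds DNA ahead of polymerases that are held on the template by the PCNA clamp, while TYMS and RRM2 supply nucleotides and UHRF1 carries DNA methylation onto the new strand. These genes are switched on by E2F factors once cyclin-dependent kinases have inactivated the RB proteins. DNA breaks activate p53, which raises CDKN1A (p21, an inhibitor of those kinases) and a set of repair, feedback and death genes, and p21 can hold cells in G1 before S phase begins.

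The genes that chose the cells carry E2F recognition words in their promoters, and 4 are printed because they define the cells compared. In the RefSeq promoter windows on GRCh38.p14, which run from 250 bases before to 50 bases after a gene's start, TTTGGCGC, TTTCGCGC, TTTCCCGC and TTTGGCGG were searched on both strands. Of the 10 genes of the S score, 8 had a window and 7 of these held a word (87.5%), against 1106 of 27305 genes overall (4.05%). RRM2 held none. The capitals mark the word.
MCM6 (chr2:135876496-135876563, minus strand): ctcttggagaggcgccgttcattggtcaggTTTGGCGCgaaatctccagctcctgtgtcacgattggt
PCNA (chr20:5126644-5126711, minus strand): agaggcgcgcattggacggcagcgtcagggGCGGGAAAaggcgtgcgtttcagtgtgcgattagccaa
TYMS (chr18:657584-657651, plus strand): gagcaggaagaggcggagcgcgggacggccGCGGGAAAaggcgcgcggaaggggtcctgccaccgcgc
GINS2 (chr16:85688948-85689015, minus strand): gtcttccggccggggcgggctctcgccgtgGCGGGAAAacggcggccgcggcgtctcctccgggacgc
The last 3 hold TTTCCCGC on the opposite strand, so the capitals show its reverse complement. In MCM6 the word overlaps a TTTCGCGC on the opposite strand. In the list of p53 targets, 5 of 39 matched genes held a word (12.8%). A match is only these letters in this window.

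S phase cells made up a smaller share of irradiated than of untreated cells. In UT they were 72 of 358 cells in experiment 1 (20.1%, 95% exact binomial interval 16.1 to 24.6) and 91 of 367 in experiment 2 (24.8%, 20.5 to 29.5). In IR they were 29 of 247 (11.7%, 8.006 to 16.4) and 27 of 248 (10.9%, 7.30 to 15.4). Both IR libraries lay below both UT libraries. The mean share was 22.5% ± 3.31 in UT and 11.3% ± 0.604 in IR (SD, n = 2 libraries each), a difference of -11.1 percentage points that was -8.37 in experiment 1 and -13.9 in experiment 2. It was larger than the spread between libraries, but an exact permutation test of 2 against 2 libraries cannot go below p = 0.333, and none is given. Cells low in both scores took the larger share of IR cells, 71.7% and 71.0%, against 41.3% and 36.5% in UT. Cells high in M alone were 24.3% and 20.7% of UT cells and 10.9% and 11.7% of IR cells. The intervals cover counting error only. The deposited barcodes outnumber the cells that the study gives for each group and experiment, and all of them were used. The effect of this on the shares was not tested.

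**Figure D1:**
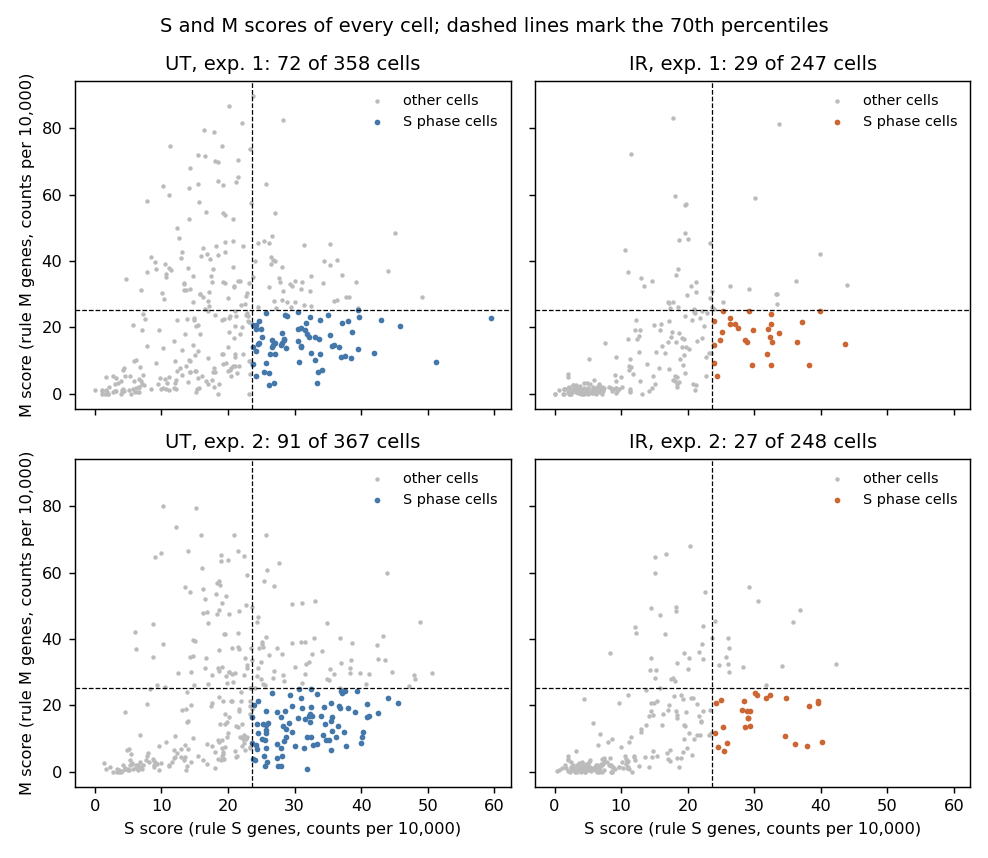
S score against M score of each cell, in counts per 10000, in 4 panels by group and experiment, with dashed lines at the 70th percentiles and the S phase cells coloured. The coloured cells number 72 and 91 in UT against 29 and 27 in IR, and grey cells near the origin are denser in IR.

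The scores run without a gap across the limits. The S limit was 23.6 per 10000, the nearest member had 23.63 and the nearest cell outside had 23.58. Within 10 percent of the limit lay 50 members above and 59 cells below, and 26 members lay within 10 percent of the M limit of 25.2. Cells high in S that were also high in M were set aside. They made up 41.5% and 42.0% of the S-high cells in UT and 32.6% and 37.2% in IR, with wide intervals in IR (19.1 to 48.5 and 23.0 to 53.3). Once inside the limits, the members resembled each other in the score that chose them. The median S score of UT members was 30.8 and 31.3, that of IR members 29.6 and 29.3. The median M score of UT members was 15.4 and 14.4, and it was 18.3 in each IR library.

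The 10 S score genes are given as a description of what the rule used, with no test. In IR members 5 of them were lower in both experiments and 0 higher, with a median log2 fold change of -0.08. Over all genes tested 31.2% were lower in both experiments. MCM2, MCM4, MCM5 and MCM6 had log2 values of -0.28, -0.38, -0.26 and -0.57. The other S score genes lay between -0.11 (TYMS) and 0.08 (UHRF1). TYMS, the enzyme that makes thymidylate, was at 1000.4 and 975 CPM (counts scaled to 1000000 per library) for the untreated members of experiments 1 and 2 and at 936 and 978 for the irradiated ones, and gave about as much of the S sum in each group (32.2%, 30.5%, 30.8% and 32.1%). RRM2, a subunit of ribonucleotide reductase, was at 503, 436, 589 and 421 CPM. The helicase subunit MCM6 was at 135 and 213 in UT and 110 and 137 in IR. PCNA was at 290 and 423 in UT and 376 and 399 in IR. PCNA is also a p53 target, so a cell could enter the rule partly through it, and it held 9.35% and 13.2% of the S sum in UT and 12.4% and 13.1% in IR. With PCNA left out of the score, a choice added once the data had been looked at, 204 of the 219 members were chosen again and the share difference was -11.00 points.

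The label was checked against 11 S phase markers that the rule did not use. All 11 (MCM3, MCM7, CDC45, CCNE2, CDT1, CHAF1A, TK1, FEN1, DNMT1, HELLS and CLSPN) had higher CPM in the members than in the cells low in both scores of the same library, in each of the 4 libraries, with a median log2 ratio (1 CPM added to each level) of 1.11 and 1.28 in UT and 1.91 and 1.57 in IR. CCNE2, the cyclin E2 that starts S phase, was at 40.7 and 57.4 CPM in UT members and 62.7 and 44.2 in IR members, against 7.63 to 15.0015 in the low cells. The 8 G2 and M phase markers not used by the rule were also mostly higher in the members, 8 and 7 of them in UT and 8 in each IR library, with smaller median log2 ratios (0.79, 0.78, 1.38 and 1.12). The low cells were chosen below the same S limit, so that S markers which go with the score are held higher in members in part by the rule. The members are called S phase cells by transcripts only, some of them with G2 transcripts, and no measure of DNA content is used here.

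Summed over members, the UT libraries gave 1227535 and 1775915 counts and the IR libraries 733725 and 678981. The median UT member held 16778 counts in experiment 1 and 19074 in experiment 2, the median IR member 19360 and 25934, with 3660 to 3774 genes at an equal depth of 8000 UMIs. Per spike-in count there were 330 and 81.7 counts for UT members and 496 and 114 for IR members, so IR was higher within each experiment and the experiments stood further apart than the groups. All values below are relative to a library's total, so a fall need not be a fall per cell. Markers of other cell types were low: the summed CPM was 2.44 to 19.1 for 8 haematopoietic genes (3 at 0 in every library), 17.7 to 41.5 for 6 epithelial genes and 0.815 to 6.81 for 5 endothelial genes. The epithelial sum was lower in IR (25.9 and 17.7) than in UT (41.5 and 34.9), and its part in the results below was not tested. Of 10 osteoblast lineage genes, COL1A1 (1464 to 2273 CPM) and SPARC (938 to 1216) made up most of the sum, while SP7 was at 0 in all 4 libraries. Cells were sorted singly and no doublet caller was run. The libraries share 173 to 350 barcodes pair by pair, which are the well barcodes of the plates and not shared cells.

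Irradiated S phase cells carried more p53 target transcripts than untreated ones. Of 10365 genes tested outside the rule, 60 rose (0.579%) and 17 fell (0.164%) in IR members by edgeR's quasi-likelihood test with Benjamini-Hochberg adjustment over all genes tested, and 981 had an unadjusted p under 0.05. Together they were 0.743% of the genes, and all 77 had the same sign in experiments 1 and 2. A fit with the experiment as a block called 394 higher (3.8%) and 268 lower (2.59%), 6.39% in all, the 77 among them. Without IR replicate 2 the counts were 113 and 47, and the count of lower genes was 29 without UT replicate 1 and 42 without UT replicate 2. Of 46 listed p53 targets, 41 could be tested. Among these 12 rose, 0 fell and 29 were not called. With the block 31 rose. The median log2 fold change of the 41 was 1.06 against 0.00 for all genes tested, and 38 of them were higher in IR in both experiments, against 29.4% of all genes tested.

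CDKN1A, on chromosome 6 at 36676460 to 36687337, was at 193 and 231 CPM in UT members and 687 and 701 in IR members. The IR libraries lay close together and well above both UT libraries. The rise was 3.12-fold (log2 1.64, SE 0.21, edgeR adjusted p = 0.00155). GADD45A, a stress gene whose protein binds PCNA, was at 70.9 and 91.2 CPM in UT and 305 and 330 in IR (log2 1.90, SE 0.22, adjusted p = 0.00105). MDM2 encodes a ligase that marks p53 for destruction. It stood at 48.9 and 76.0 CPM for UT and 217 and 200 for IR (log2 1.66, SE 0.25, adjusted p = 0.00836). Both IR libraries lay above both UT libraries, as they did for 23.6% of all genes tested. The call of MDM2 was lost when PCNA was left out of the S score (log2 1.42, adjusted p = 0.0832). PPM1D, the phosphatase that switches the damage response off, rose from 73.3 and 69.8 to 174 and 155 CPM (adjusted p = 0.0402), a call that ended with UT replicate 1, UT replicate 2 or IR replicate 1 left out (largest adjusted p = 0.128). Feedback genes and effectors of p53 were thus both among the genes that rose.

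The other called p53 targets fall into a few roles. RRM2B is the ribonucleotide reductase subunit that p53 can induce, and it rose from 48.9 and 63.6 CPM to 221 and 150 (log2 1.64, adjusted p = 0.0109). RRM2, its S phase counterpart, is a gene of the rule, so that its level in members is not set against this rise. TIGAR, a regulator of glycolysis (log2 1.4998, adjusted p = 0.00865), SESN2, a stress sensor upstream of mTORC1 (1.54, 0.0359), and FDXR, a mitochondrial reductase (1.72, 0.0186), also rose. FDXR was not called without UT replicate 2 (adjusted p = 0.0521), nor SESN2 without UT replicate 1 (0.126). ZMAT3, an RNA-binding protein, rose from 62.7 and 73.8 CPM to 206 and 246 (log2 1.65, adjusted p = 0.00398). BTG2, an antiproliferative gene, rose from 16.3 and 29.8 to 84.5 and 89.8 (1.81, 0.0161). The death receptor gene FAS was at 10.6 and 16.9 CPM in UT and 81.8 and 45.7 in IR (log2 2.11, SE 0.36, adjusted p = 0.0161), and with IR replicate 1 left out it was no longer called (adjusted p = 0.0537). FAS was the 1 of 20 tested apoptosis effectors that was called, against 0.743% of all genes tested. BBC3 (8.96 and 14.6 CPM for UT, 23.2 and 38.3 for IR) and BAX (29.3 and 36.0 against 34.1 and 91.3) were not called without the block.

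Sequence that resembles the p53 consensus lies near the starts of some of these genes, and 4 sites are printed because their genes rose. The window ran 5000 bases to each side of the gene start (GENCODE release 44) on GRCh38. A site is 20 bases made of a 10-base element repeated without a spacer, each with a core that opens with C, ends with G and holds only A or T between them, and with up to 2 mismatches to the consensus among the other 12 bases. The consensus is its own reverse complement, so both strands are searched at once, and the limits were set after the calls were known. The capitals mark the cores.
CDKN1A (chr6:36676449-36676468, plus strand): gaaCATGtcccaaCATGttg
GADD45A (chr1:67686775-67686794, plus strand): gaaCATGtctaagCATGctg
ZMAT3 (chr3:179070188-179070207, minus strand): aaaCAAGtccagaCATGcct
BTG2 (chr1:203303642-203303661, plus strand): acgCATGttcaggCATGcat
Such a site was found for 11 of 40 matched p53 targets of all those tested (27.5%) and 5 of the 12 that rose (41.7%), for 5 of 41 matched other genes that rose (12.2%), for 0 of 17 genes that fell and for 992 of 20046 protein-coding genes (4.95%). The site of CDKN1A overlaps the outermost start in its annotation, and that of GADD45A lies 1583 bases after the start. That of ZMAT3 has 0 mismatches. Whether CDKN1A is transcribed from that outermost start in these cells, or p53 binds any of these sites, was not tested.

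**Figure D2:**
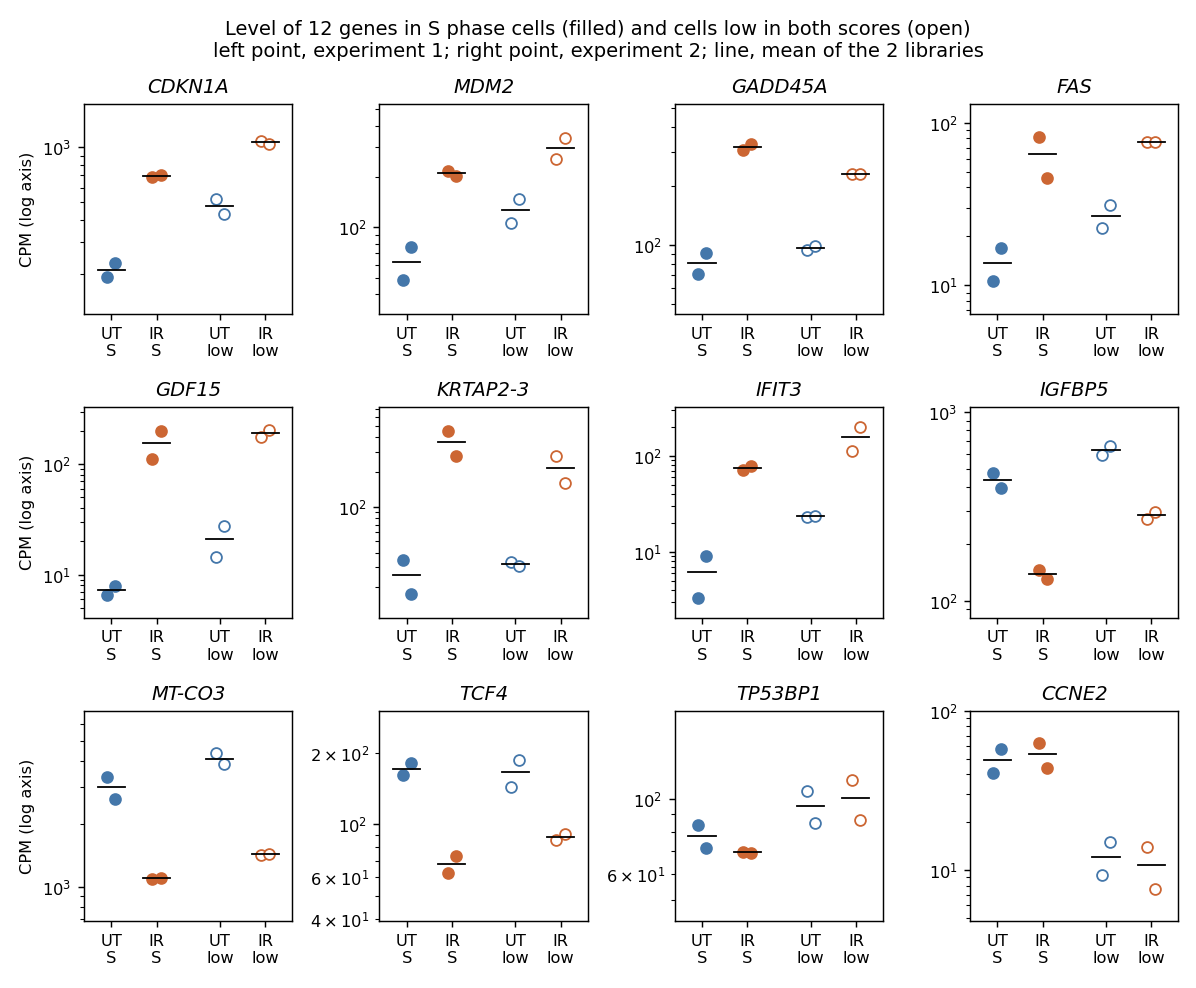
CPM on a log axis for 12 genes, in S phase cells (filled) and in cells low in both scores (open), with UT in blue, IR in orange, experiment 1 on the left of each pair and a line at the mean of 2 libraries. In S phase cells CDKN1A lies at 193 and 231 in UT and 687 and 701 in IR, and TP53BP1 lies between 69.2 and 83.9 in all 4 libraries.

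The rise in CDKN1A was spread over the members and not confined to a few cells. Its median over single members was 1.53 and 1.83 counts per 10000 in UT and 5.01 and 5.65 in IR, and no IR member was at 0 without thinning. At an equal depth of 8000 UMIs its transcripts were seen in 72.5% (95% exact interval 60.4 to 82.5) and 73.0% (62.6 to 81.9) of UT members and in 92.9% (76.5 to 99.1) and 92.0% (74.0 to 99.0) of IR members. Unthinned, the shares were 87.5% and 91.2% for UT and 100% for each IR library. The interquartile range of IR members, 3.74 to 7.82 in experiment 1 and 2.73 to 9.59 in experiment 2, lay largely above that of UT members (0.81 to 2.65 and 0.74 to 3.12). MDM2 was detected in 24.6% and 43.8% of thinned UT members and 75% and 64% of thinned IR members (unthinned 47.2%, 65.9%, 86.2% and 81.5%). GDF15 was detected in 7.25% and 4.49% of thinned UT members and 28.6% and 36% of thinned IR members (unthinned 6.94%, 6.59%, 44.8% and 55.6%). PTPRC, a leukocyte gene that these cells should lack, was detected in 0% and 4.49% of thinned UT members and 3.57% and 4% of thinned IR members (unthinned 0%, 6.59%, 3.45% and 18.5%), and GDF15 in UT experiment 2 had the same share as PTPRC. In UT experiment 1 PTPRC was in 0 of 69 thinned members, where 3 cells would be 4.35%.

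**Figure D3:**
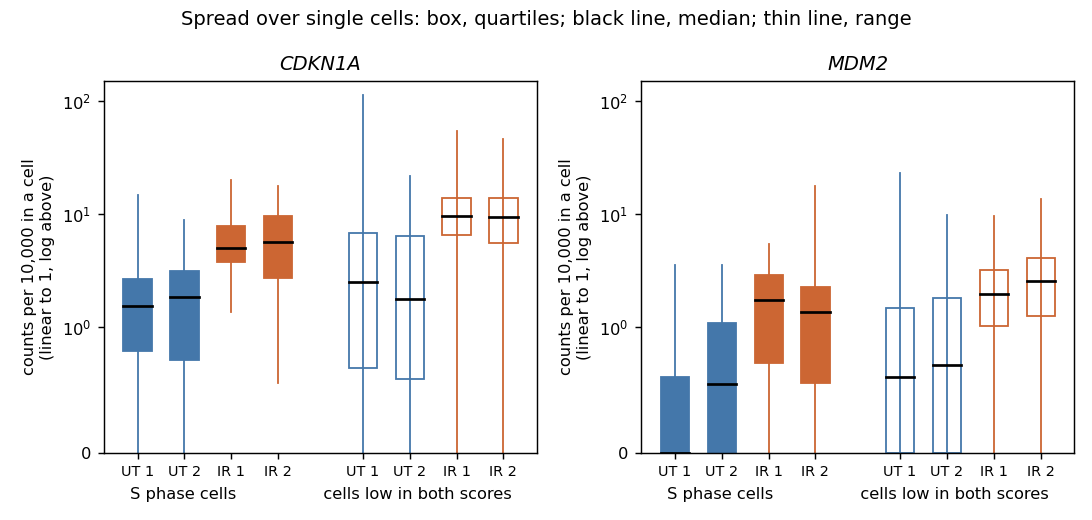
Counts per 10000 of CDKN1A and MDM2 in single cells of each library (linear up to 1 and log above), with a box for the quartiles, a black line for the median and a thin line for the range. The CDKN1A median of S phase cells is 1.53 and 1.83 in UT and 5.01 and 5.65 in IR, and cells low in both scores reach 9.57 and 9.48 in IR.

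TP53BP1, which encodes the damage protein followed in the study by imaging, was at 83.9 and 71.5 CPM in UT members and 69.5 and 69.2 in IR members and was not called (log2 -0.23, SE 0.26, adjusted p = 0.877). Thinned UT members held it in 50.7% and 42.7% of cells, thinned IR members in 32.1% and 40% (unthinned 62.5%, 72.5%, 72.4% and 70.4%). The thinned shares were lower in IR and the unthinned ones were not, so no order is read from them. CCNE1, cyclin E1, was at 57.8 and 83.3 CPM in UT and 47.7 and 89.8 in IR, with the experiments further apart than the groups (log2 -0.12, adjusted p = 0.961), and CCNE2 had a log2 fold change of 0.05 (adjusted p = 0.986).

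The genes with the largest rises were mostly at a few CPM in untreated S phase cells. Genes under the filter on low counts in both UT libraries were tested only because their IR libraries passed it. This holds for LINC00520, AL138828.1 and PINCR, so that their being tested is no separate support for a rise. GDF15, a secreted stress cytokine and p53 target, was at 6.52 and 7.88 CPM in UT and 112 and 202 in IR (log2 4.34, SE 0.38, adjusted p = 0.000211). It rested on few cells, with counts in 13 of 29 and 15 of 27 IR members, and in IR experiment 2 a single cell held 47.9% of its counts. Without that cell its level was 109. The long non-coding RNA LINC00520 had 3 counts in all UT members and 70 in IR members, a ratio of 49.6 (95% counting interval 16.3 to 246). AL138828.1 and PINCR, a p53-regulated non-coding RNA, had 0 counts in UT. Against a floor of 3 counts over the group they were at least 21.3-fold and 14.9-fold higher in IR. In IR experiment 2 a single cell held 66.7% of the counts of AL138828.1, and PINCR lost its call with either UT library left out (adjusted p = 0.254 and 0.265).

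SUGCT, a mitochondrial enzyme of glutarate metabolism, rose from 3.26 and 4.50 to 65.4 and 58.9 CPM (log2 3.87, adjusted p = 0.000421). KRTAP2-3, a keratin-associated protein of hair, rose from 34.2 and 17.5 to 454 and 277 (3.79, 0.000421), with counts in 18 of 29 and 14 of 27 IR members. It belongs to a family of like sequences, which the count of reads unique to a gene can split. The stress transcription factor ATF3 rose from 8.96 and 14.1 to 84.5 and 103 CPM (log2 2.91, adjusted p = 0.000818), and CFAP58, a gene of cilia and flagella, from 13.03 and 13.5 to 113 and 69.2 (2.704, 0.00147). FLG-AS1, antisense to the filaggrin gene, rose from 3.26 and 9.01 to 66.8 and 23.6 (2.72, 0.0454), in a count whose use of strand is not given in the sources used here. A single cell held 45.0% of its counts in IR experiment 1, and leaving out that library ended the call (adjusted p = 0.240).

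A few interferon-stimulated genes were higher in IR members, most of them through 1 cell of each IR library. Of 40 listed, 19 could be tested, 4 rose and 0 fell, with a median log2 of 0.75. With the block 7 rose. Over all genes tested 0.579% rose and 0.164% fell, and 3.8% rose with the block. IFIT3, an antiviral RNA-binding protein, was at 3.26 and 9.01 CPM in UT and 72.2 and 78.1 in IR (log2 3.44, SE 0.38, adjusted p = 0.000818). OASL was at 6.52 and 6.19 in UT and 65.4 and 45.7 in IR (3.05, 0.00155), SP140 at 1.63 and 2.82 against 28.6 and 20.6 (3.29, 0.0159) and ISG15 at 7.33 and 6.76 against 54.5 and 20.6 (2.35, 0.0421). For these 4 genes both IR libraries lay above both UT libraries, as they did for 23.6% of all genes tested. In each IR library the same member held most of the counts of 3 of them: 77.4% and 81.2% of IFIT3, 91.7% and 71.1% of OASL, and 80.05% and 64.3% of ISG15, but 0 counts of SP140. Without that cell IFIT3 was at 16.7 and 15.8 CPM in IR, OASL at 5.56 and 14.2, and ISG15 at 11.1 and 7.88, so that OASL no longer stood apart from UT. The summed list had a median of 5.17 and 5.30 counts per 10000 in UT members and 5.42 and 5.82 in IR members. SP140 was no longer called once IR replicate 1 was left out (adjusted p = 0.0964), nor ISG15 (0.432), which was not called with membership from thinned cells either. IFIT3 was not called once PCNA was left out of the score (adjusted p = 0.108), and neither IFIT3 nor OASL at the 80th percentile of S (0.189 and 0.0988).

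Of 38 listed genes of the senescence-associated secretory phenotype, 24 were tested, 3 rose (GDF15, MMP3 and AREG) and 1 fell (IGFBP5), with a median log2 of 0.49. Over all genes tested 0.579% rose and 0.164% fell. With the block 9 of the list rose and 1 fell, against 3.8% and 2.59% of all genes tested. The stromelysin gene MMP3 was at 4.07 and 4.50 CPM in UT and 79.0 and 25.04 in IR (log2 3.50, adjusted p = 0.0154). In IR experiment 1 a single cell held 44.9% of its counts, and its call was lost without that library (adjusted p = 0.0688). The EGF receptor ligand AREG rose from 12.2 and 14.1 to 45.0 and 58.9 CPM (1.89, 0.0191). IGFBP5, which binds insulin-like growth factors, fell from 474 and 395 to 146 and 130 CPM (log2 -1.72, SE 0.22, adjusted p = 0.00155).

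The 17 genes that fell included mitochondrial transcripts, transcription regulators and a linker histone. MT-CO3, a subunit of cytochrome oxidase, fell from 3348 and 2641 CPM to 1090 and 1102 (log2 -1.52, SE 0.21, adjusted p = 0.00398). MT-CO1, MT-ND2 and MT-ND4 also fell. Thus 4 of the 13 tested genes of the mitochondrial genome were called lower and 0 higher, against 0.164% and 0.579% of all genes tested. The other 9 were not called without the block, and 12 of the 13 had a log2 below 0 (median -1.17). The median share of mitochondrial counts per member was 4.15% and 4.02% for UT against 2.32% and 2.62% for IR, and it was lower in IR in the cells low in both scores as well (4.99% and 5.29% against 2.61% and 3.03%). The calls of MT-CO1, MT-ND2 and MT-ND4 ended without IR replicate 1 (adjusted p = 0.138, 0.0545 and 0.0992). The part of RNA quality in these values was not tested.

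TCF4, a basic helix-loop-helix factor, fell from 161 and 181 to 62.7 and 73.6 CPM (log2 -1.40, adjusted p = 0.0161), and LBH, a transcription cofactor, from 142 and 190 to 77.7 and 47.1 (-1.48, 0.0247), where a single cell held 54.5% of the LBH counts of IR experiment 1. HCFC1R1, a regulator of the cofactor HCFC1, fell from 108 and 96.3 to 38.2 and 38.3 (-1.48, 0.0215). SESN3 fell from 41.5 and 38.9 to 12.3 and 11.8 CPM (log2 -1.79, adjusted p = 0.0402), while SESN2 of the same family rose. TTYH1, LMCD1 and FXYD6 fell with log2 values of -1.94, -1.83 and -1.61 (adjusted p = 0.0454, 0.0380 and 0.0406). The calls of TTYH1, SESN3 and FXYD6 were each lost without IR replicate 1, and also without UT replicate 2 for TTYH1 and without UT replicate 1 for SESN3 and FXYD6 (largest adjusted p = 0.124, 0.0688 and 0.128). That of LMCD1 was lost without IR replicate 2 (adjusted p = 0.0824).

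Among replication-dependent histones, which are made in S phase and mostly lack the poly(A) tail this method captures, 9 of 22 listed genes could be tested. HIST1H1A, a linker histone H1 gene on chromosome 6, fell from 72.5 and 60.3 CPM in UT members to 14.99 and 28.0 in IR members (log2 -1.69, SE 0.34, adjusted p = 0.0402). The counts came from 38 of 72 and 48 of 91 UT members and 9 of 29 and 6 of 27 IR members. It was not called when IR replicate 1 was left out (adjusted p = 0.137). The other 8 were not called without the block, and with it HIST1H2BJ was higher (log2 1.22, blocked adjusted p = 0.00251) and HIST1H4C lower (-0.60, 0.000735). The median log2 of the 9 was 0.20, with the experiments on opposite sides (-0.23 and 0.42).

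Within cells chosen for high S transcripts, no gene of the replication machinery outside the rule was called, and the list medians lay below 0. The rule held its 10 genes to 1 floor in both groups, and genes that move with them are held to it in part, so that no independent comparison of replication genes is possible here. Of 16 genes of origin licensing and firing, 27 of the replication fork, 16 of nucleotide supply and 13 of chromatin assembly and DNA methylation, 0 were called in either direction by edgeR or by DESeq2. At an unadjusted edgeR p under 0.05 stood 3, 1, 1 and 0 of them, against 981 of all 10365 genes tested. At the adjusted threshold edgeR called 0.743% of all genes tested, and 0 calls in lists of this size are near that share. The median log2 values of these lists were -0.19, -0.20, -0.12 and -0.05. Lower in IR in both experiments were 9 of the 16 origin genes, 16 of the 27 fork genes, 6 of the 16 nucleotide genes and 6 of the 13 chromatin genes, against 31.2% of all genes tested. With the block ORC6, a subunit of the origin recognition complex, was higher (91.2 and 92.3 CPM in UT, 147 and 140 in IR, log2 0.58, blocked adjusted p = 0.0377). TIMELESS and CLSPN, which hold the fork together and signal from it, were lower with the block (log2 -0.70 and -0.42), as was DUT, which removes dUTP (508 and 632 CPM in UT, 360 and 392 in IR).

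Nor were checkpoint, repair or bypass genes called, and with 0.743% of all genes tested called by edgeR, 0 calls are near that share. Of 20 checkpoint and break signalling genes, 33 of homologous recombination and the Fanconi pathway and 17 of lesion bypass, 0 were called without the block by edgeR or DESeq2, 0, 3 and 0 had an unadjusted p under 0.05, and the medians were -0.09, -0.21 and -0.17. An unadjusted edgeR p under 0.05 was found for 981 of all 10365 genes tested. Of the 33 recombination genes 18 were lower in IR in both experiments, against 31.2% of all genes tested. RMI2, of the complex that dissolves recombination intermediates, was at 74.1 and 77.7 CPM in UT and 38.2 and 35.3 in IR (log2 -1.11, adjusted p = 0.0955, blocked 0.000553), and the recombination gene RAD51C at 132 and 158 in UT and 234 and 233 in IR (log2 0.62, adjusted p = 0.283, blocked 0.00343). For RAD51C both IR libraries lay above both UT libraries, as they did for 23.6% of all genes tested. CHEK1, the checkpoint kinase of the replication stress response, was at 77.4 and 66.4 CPM in UT and 55.9 and 47.1 in IR and was not called in either fit (adjusted p = 0.562, blocked 0.163).

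Of the 22 tested genes of cyclins, CDKs, E2F factors and the RB family, 0 were called by edgeR or DESeq2. The share that edgeR called over all genes tested was 0.743%. An unadjusted p under 0.05 was found for 1 of the 22, and their median log2 was -0.03. CCND1, cyclin D1, was higher with the block (228 and 193 CPM in UT, 338 and 320 in IR, log2 0.58, blocked adjusted p = 0.00252). CDKN1A was the 1 CDK inhibitor called of 5 tested, and CDKN1B (p27) stood at 28.5 and 36.0 CPM in UT against 28.6 and 14.7 in IR, uncalled. Of 43 further G2 and M phase genes 0 were called by edgeR or DESeq2 and 6 had an unadjusted p under 0.05, all higher in IR. Their median log2 was 0.22 and 26 of them were higher in IR in both experiments, against 29.4% of all genes tested. HMMR, a spindle protein, was at 58.7 and 52.4 CPM in UT and 101 and 103 in IR (log2 0.81, adjusted p = 0.216, blocked 0.00448). The members' median sum over this list was 38.2 and 40.1 counts per 10000 for UT against 48.6 and 51.5 for IR, and their M score was also higher in IR under the common limit, as given above.

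**Figure D4:**
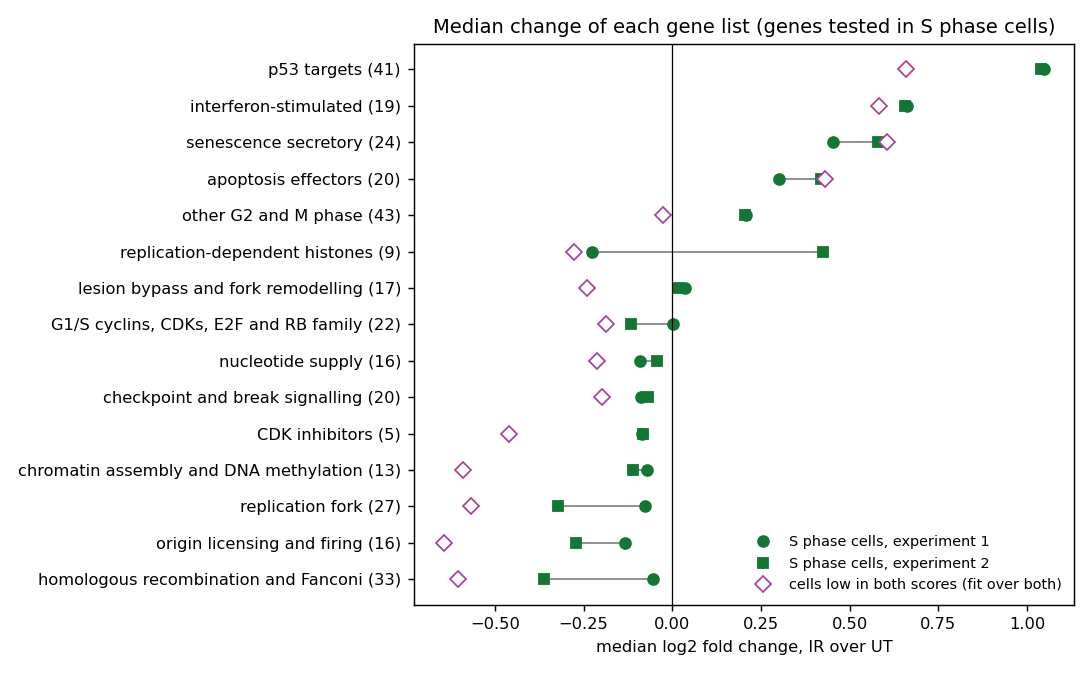
Median log2 fold change of IR over UT for 15 gene lists in S phase cells, by experiment (circles and squares), and in cells low in both scores (open diamonds), with the number of genes tested in brackets. The p53 targets stand at 1.05 and 1.04 in the 2 experiments. The lists of origin, fork, nucleotide and chromatin genes lie closer to 0 in S phase cells than in the cells low in both scores. These genes go with the S score, which held the members of both groups to the same floor.

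The response to irradiation was then set beside that of the 635 cells low in both scores. In these cells 79 of 13296 genes rose (0.594%) and 53 fell (0.399%), 0.993% in all, and all 77 genes called in S phase cells had the same sign there, 42 of them called. The cells of both classes come from the same 4 libraries. The low cells do not hold the same mixture in each group: their median S score was 12.9 and 13.7 for UT against 7.09 and 7.95 for IR, and their median M score 6.48 and 5.74 in UT and 1.86 and 2.41 in IR. How much of a difference between the classes comes from this mixture cannot be told apart. In a test of the difference itself over 8 sums (library, class and class by treatment), 28 of 12776 genes were higher in S phase cells (0.219%) and 5 lower (0.0391%), 0.258% in all, and 918 had an unadjusted p under 0.05. The block gave 38 (0.297%) and 13 (0.102%), 0.399% in all. The higher genes numbered 13 without UT replicate 1 and 5 without UT replicate 2, and the lower genes 1 without UT replicate 1 and 20 without IR replicate 2.

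CDKN1A stood lower in S phase cells than in low cells in each of the 4 libraries, since low cells had 520 and 429 CPM in UT and 1085 and 1045 in IR. The fold change was larger in S phase cells by 0.52 on the log2 scale (SE 0.12, adjusted p = 0.0246), a difference of 0.29 that was not called without UT replicate 1 (adjusted p = 0.976). For GADD45A the low cells had 93.9 and 98.4 CPM in UT and 230 and 231 in IR, so that IR members stood above IR low cells, and the difference was 0.70 (SE 0.17, adjusted p = 0.0373), which was called without IR replicate 1 but not without any of the other libraries (largest adjusted p = 0.603). KRTAP2-3 also differed (1.11, adjusted p = 0.0193, but 0.731 without UT replicate 2), as did OTUD1, a deubiquitinase (4.07 and 2.25 CPM against 20.4 and 23.6 in members, 8.37 and 9.38 against 6.26 and 13.8 in low cells). OTUD1 lost its call in S phase cells whichever library was left out (largest adjusted p = 0.221), and a single cell held 81.2% of its counts in IR experiment 2. MDM2, GDF15 and FAS had differences of 0.53, 1.28 and 0.70 that were not called (adjusted p = 0.345, 0.152 and 0.649). With the block that of GDF15 was called (adjusted p = 0.0357). In all, 5 of the 77 genes also had a called difference. So had 2 of 43 tested p53 targets, against 0.258% of all genes tested. The median of the p53 targets was 1.06 in S phase cells and 0.66 in low cells.

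The other 28 called differences were in genes not called in S phase cells. The lists of origin, chromatin, histone, bypass and G2 and M phase genes held 12 of them, all with a log2 below 0 in low cells, where 3 were called, and all higher in S phase cells. The other 16 were in no such list. DTL, the adaptor of the ubiquitin ligase that degrades CDT1 and p21 in S phase, was at 94.5 and 98.0 CPM in UT members and 125 and 102 in IR members, and at 43.2 and 47.8 against 21.8 and 20.9 in low cells (difference 1.33, SE 0.24, adjusted p = 0.00177). Of the lists, 3 of 16 origin genes (MCM3, MCM7 and ORC6), 3 of 13 chromatin genes (DNMT1, NASP and H2AFZ) and 4 of 43 further G2 and M phase genes had a called difference, all of them higher in S phase cells. Of all genes tested for the difference, 0.219% were called higher in S phase cells. MCM3, for example, had a log2 fold change of -0.36 in S phase cells and -1.06 in low cells. These genes go with the scores that chose both classes, and the differences are given as values.

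**Figure D5:**
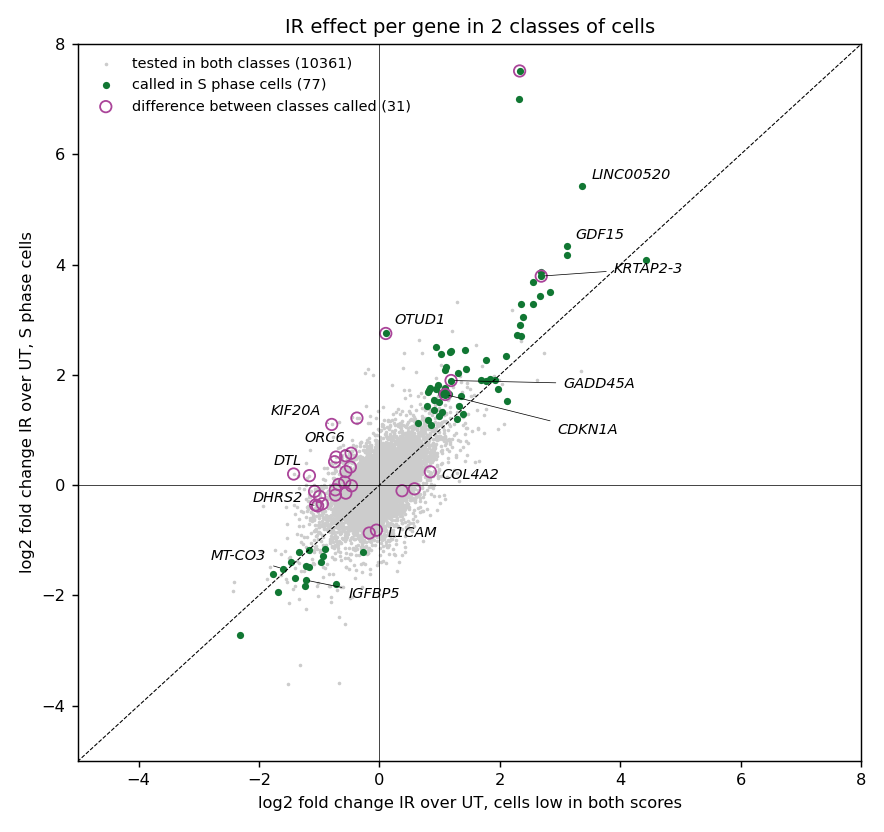
Log2 fold change of IR over UT for 10361 genes tested in both classes, in S phase cells (vertical) against cells low in both scores (horizontal), with the 77 genes called in S phase cells in green, circles around 31 genes whose difference was called and a dashed line of equal effects. The green points lie in the upper right and lower left, and 23 of the 31 circled points lie left of 0.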

How the data were processed

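SORT-seq libraries of U-2 OS cells were analysed from the deposited matrices, 2 UT and 2 IR, grouped by sample titles. The authors mapped to GRCh38 with STARsolo without intronic or multi-gene reads and without a UMI cut-off, and the submitters' notes name Seurat 5. The deposited values are expected counts, not whole numbers: all lie on the correction for 4096 possible UMIs. Values of 36601 genes were used, and 92 spike-ins were left out of scores, library sizes and tests. All 1220 barcodes were kept, with no filter on cells, and totals per library ranged from 5736339 to 6810079 gene counts.

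Members' counts were summed per library, rounded to whole numbers, and fitted in R 4.3.3 with edgeR 4.0.16, using TMM factors, the filterByExpr limit and its robust two-sided quasi-likelihood test (Benjamini-Hochberg, threshold 0.05). Genes of the rule stayed in the fit without a call. The difference of effects was fitted over 8 sums. DESeq2 1.42.0, the experiment as a block, other membership rules and leaving out each library were alternatives. The titles' experiment number pairs the libraries: deviations from the group means correlated at 0.375, and the common biological coefficient of variation fell from 0.175 to 0.0920 under the block, which leaves 1 residual degree of freedom. The study describes independent sets of samples, and the p-values cover only variation among these 4 libraries. Fits were tested on simulated counts with known changes.

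The members and gene lists were chosen with earlier results of these data known. Named genes were CDKN1A, MDM2, GDF15, FAS, GADD45A, TP53BP1, CCNE1, CCNE2, the 10 largest called changes in each direction (mean of at least 20 CPM, same sign in experiments 1 and 2), up to 3 called members of each list (otherwise the 2 of smallest p), and the 6 smallest p of the difference in each direction. Further list members, OTUD1, AL138828.1, PINCR and mitochondrial genes other than MT-CO3 were named after their values were seen. 1 marker of the S label is not reported here. Positions are from GENCODE release 44 on GRCh38.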

Additional observations from a re-analysis of the deposited data

Results flagged for a closer look

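For 23 genes named in the text the log2 effect of IR differed between S phase cells and cells low in both scores by a test of the difference itself (edgeR, Benjamini-Hochberg adjusted p under 0.05). Higher in S phase cells were DHRS2, a short-chain dehydrogenase (difference 0.63, adjusted p = 2.21e-05), DTL (1.33), PTTG1, the securin (0.81), DLGAP5, a spindle protein (1.24), and KIF20A, a mitotic kinesin (1.92). So were CDKN1A (0.52), GADD45A (0.70), KRTAP2-3 (1.11), OTUD1 (2.71), ORC6 (1.05), MCM3 (0.69), MCM7 (0.59), DNMT1 (0.68), NASP (0.55), the histone variant H2AFZ (0.41) and HIST1H2BJ (1.61). The genes of the S score, which chose the cells, had a median difference of 0.65 themselves, and those of the M score 0.48. The replication, chromatin, histone and mitotic genes listed here go with these scores, so that their differences are no independent result. AL138828.1 had a fitted value of 6.14, which is no bound, since its UT members held 0 counts. RRAD, a small GTPase, had a fitted difference of 8.31, which is no bound, because both UT libraries held 0 counts in members. In S phase cells alone RRAD did not pass the filter on low counts and was not tested. In the test of the difference its UT members gave it no part in passing that filter. Its counts came from 3 of 29 and 5 of 27 IR members, and 1 cell held 65.3% of those in IR experiment 2. Lower in S phase cells were MICAL2, which oxidises actin (-0.64), MAP1A, a microtubule protein (-0.71), COL4A2, a collagen IV chain (-0.61), AMIGO2 (-0.48) and L1CAM (-0.76), both adhesion molecules. With the replicate block KIF20A was also called higher in IR S phase cells themselves (adjusted p = 0.0210), and MAP1A and L1CAM lower (5.31e-06 and 0.000339). COL4A2 was at 228 and 211 CPM in UT members and 275 and 268 in IR members, and at 219 and 210 against 433 and 377 in low cells.

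Leaving out 1 library changed 22 of these calls. Without UT replicate 2 the calls of RRAD, DTL, PTTG1, DLGAP5, KIF20A, KRTAP2-3 and ORC6 were lost (largest adjusted p = 0.731 for KRTAP2-3), without IR replicate 2 those of RRAD and KIF20A, and without UT replicate 1 that of CDKN1A. OTUD1, NASP, AL138828.1 and H2AFZ lost theirs without UT replicate 1 or UT replicate 2, the first pair also without IR replicate 1. GADD45A, MCM7, DNMT1 and HIST1H2BJ lost theirs when any library but IR replicate 1 was left out, and MCM3 whichever library was left out (up to 0.499). Without UT replicate 1 or IR replicate 1 the 5 lower differences were lost, and MAP1A, COL4A2, AMIGO2 and L1CAM were also lost without UT replicate 2. DHRS2 kept its call without any 1 library (0.52 to 0.72) but lost it when membership was taken from thinned cells or at the 60th or 80th percentile. All 23 lie in classes whose mixture of cells differs between UT and IR, as their scores show.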

How the results depend on the processing

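Genes higher and lower in IR than in UT S phase cells numbered 60 and 17. They numbered 394 and 268 with the replicate block, 150 and 73 without a filter on low counts, 32 and 10 at the 80th percentile of S, and 39 and 7 without PCNA in the score. Lower genes were 43 with membership from thinned cells, and higher genes 22 with equal numbers of cells per library. Without 1 library, higher genes ranged from 70 to 113 and lower genes from 21 to 47, the highest of each without IR replicate 2. DESeq2 called 41 and 15. For the difference of the IR effect (28 higher, 5 lower), the counts were 44 and 14 with thinned membership, 8 higher at the 60th percentile of both scores, 18 and 2 at the 80th percentile of S, 18 and 0 without PCNA by edgeR (367 lower at an unadjusted p under 0.05), 1 lower with equal numbers of cells, 12 lower without the filter, 13 lower with the replicate block, and 216 and 63 against all other cells. Without 1 library they ranged from 5 to 32 and from 1 to 20. The share difference was -7.75 points at the 80th percentile of S, and -8.80 to -13.5 without 1 library. The differences in detected members, IR minus UT, were 19.7 points for CDKN1A, 26.4 for GDF15 and -10.6 for TP53BP1 with thinning, and 10.6, 43.4 and 3.88 without.

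Of 40 genes named and called in S phase cells, 13 kept their call in all alternatives run and 22 without any 1 library. Of 23 called differences, 0 kept theirs in all alternatives and 1 without any 1 library. None of these calls changed sign. Of genes not called in S phase cells, BAX, CCNE1, CCNE2, CLSPN, COL1A1, DNMT1 and TP53BP1 changed sign there under at least 1 alternative. Beyond the calls given with it, the block changed none among genes the text names. With 27 to 91 members per library, genes of a few CPM rest on few cells. The cause of these shifts was not tested.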
